A study of Mus musculus with 2 samples.

Results

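The 10 genes described here act in the export of cellular sterol and in the uptake of modified lipoproteins and debris by macrophages. They were chosen by symbol and fall into 5 roles. Apoe, Apoc1 and Apod encode apolipoproteins, Abca1 and Abcg1 encode sterol exporters, and Pltp and Scarb1 encode proteins that remodel or bind high-density lipoprotein (HDL). Msr1 and Marco encode class A scavenger receptors, and Soat1 encodes an enzyme that esterifies cholesterol. All 10 were among the 24346 gene symbols of the deposited tables. RNA-seq was performed on whole omentum, an abdominal fat tissue with lymphoid clusters called milky spots. There was 1 library from wild-type (WT) mice and 1 from Postn-DTR mice, and both genotypes had been given diphtheria toxin (DT) 5 days earlier. Postn-DTR mice were C57BL/6 heterozygotes (Postn Dtr/+) in which a human toxin receptor was inserted into the first coding exon of Postn, so that DT kills cells that use the Postn promoter. In the omentum this promoter was chosen to target Aldh1a2+ fibroblastic reticular cells. As limits of the model, another omental stromal fraction was partly ablated in the study's flow cytometry, and Postn is also used by mesenchymal cells outside the omentum. Age, sex and the number of mice behind each library were not given in the sources used here. Postn itself, the targeted gene, was lower in the Postn-DTR library, at 58.3 FPKM in WT against 16.2 in Postn-DTR, where FPKM counts fragments relative to transcript length and library size. As 1 Postn allele carries the insertion, loss of cells and less transcript from that allele cannot be told apart in this value.

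With 1 library per genotype, no difference below has a replicate check, and no test between genotypes was possible. The change of a gene was log2(FPKM + 1) in Postn-DTR less log2(FPKM + 1) in WT, where the added 1 is a pseudocount that understates the change of low genes. A gene was called higher or lower when this change reached 2-fold, which is 1 on the log2 scale. Fold values were computed on FPKM with no pseudocount. A gene was compared when its mean FPKM over both libraries was at least 1, which held for 13127 genes and for all 10 genes described here. FPKM is scaled to transcript length, so levels can be set side by side between genes within a library.

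Macrophages take up modified lipoproteins and dying cells through scavenger receptors and must then store or export the cholesterol they receive. SOAT1 converts free cholesterol to esters that are kept in lipid droplets. ABCA1 passes cholesterol and phospholipid to lipid-poor apolipoproteins, and ABCG1 passes cholesterol to HDL. The liver X receptors (LXRs), nuclear receptors activated by oxysterols, induce Abca1, Abcg1, Apoe, Apoc1 and Pltp in macrophages. Adipocytes, the main cells of the omentum by volume, also make apolipoprotein E and store free cholesterol.

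Promoter sequence is shown for Abca1, Apoe and Marco, which are the exporter with a known LXR element, the most abundant of the 10 genes, and the gene with the largest change. RefSeq (GRCm38.p6) promoters were matched for 6 of the 10 genes, and each sequence below is the 250 bases before the start site, read 5′ to 3′ on the minus strand, where all 3 genes lie. Capitals mark matches to the motifs named in the next paragraph.
Abca1, chr4:53159896-53160145: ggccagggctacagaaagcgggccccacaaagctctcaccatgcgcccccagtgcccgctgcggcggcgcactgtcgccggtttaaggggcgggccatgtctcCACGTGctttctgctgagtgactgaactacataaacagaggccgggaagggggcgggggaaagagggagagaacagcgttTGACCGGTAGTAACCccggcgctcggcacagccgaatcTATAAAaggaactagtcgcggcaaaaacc
Apoe, chr7:19699189-19699438: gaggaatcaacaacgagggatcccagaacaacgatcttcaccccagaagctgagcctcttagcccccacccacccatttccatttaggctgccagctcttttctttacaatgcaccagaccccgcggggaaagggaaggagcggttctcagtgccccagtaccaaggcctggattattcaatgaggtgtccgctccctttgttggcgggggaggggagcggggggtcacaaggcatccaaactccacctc
Marco, chr1:120505025-120505274: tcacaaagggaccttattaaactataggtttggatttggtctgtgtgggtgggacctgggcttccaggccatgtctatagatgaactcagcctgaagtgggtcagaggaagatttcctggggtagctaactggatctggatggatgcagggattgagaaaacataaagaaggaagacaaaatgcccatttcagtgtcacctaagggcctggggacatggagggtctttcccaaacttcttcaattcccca

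The Abca1 window held 3 matches that did not overlap. The first was an E-box (CACGTG) that began 147 bases before the start site, and 6.02% of all 32851 RefSeq promoter windows of this length held one. The second was an imperfect repeat, GGTTA followed after 4 bases by CGGTCA, read on the opposite strand and beginning 67 bases before the start, which 0.0122% of the windows held. These letters were written after the Abca1 window had been seen and correspond to the spaced repeat known as the LXR response element of this gene. The third was a TATA box (TATAAA) 29 bases before the start, found in 12.4% of windows. The Apoe and Marco windows above held none of the 7 motifs searched on both strands. RefSeq gave 3 start sites for Apoe, and the window shown is the one that ends at the start of the gene as annotated. Of the windows of the other two, that at chr7:19698622-19698871 held a pair of overlapping TATA boxes, 1 on each strand, beginning 100 and 96 bases before its start, and the other held no match. The others searched were a perfect direct repeat (AGGTCA, 4 bases, AGGTCA, in 0.0152% of windows), an AP-1 site (TGANTCA, 6.75%), a C/EBP site (TTGCNNAA, 9.56%) and a PU.1 site (GAGGAAGT, 2.44%). Matches to letters are a description of the sequence, and their absence says nothing about a factor.

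Of the 10 genes, 3 were called higher in Postn-DTR and none was called lower. These were Marco, Apoe and Abcg1. Over all 13127 genes compared, 3.88% were called higher and 3.12% lower. The other 7 stayed within 2-fold, and 9 of the 10 had a higher FPKM in Postn-DTR, the exception being Scarb1. The median change of the 10 genes was 0.62, and that of all genes compared was 0.018. At a 1.5-fold threshold, 7 of the 10 were called higher, against 9.86% of all genes, and at a 3-fold threshold Marco alone was, against 1.52%. Levels spanned a wide range, from an FPKM of 0.870 for Apod to 3922 for Apoe in WT.

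**Figure D1:**
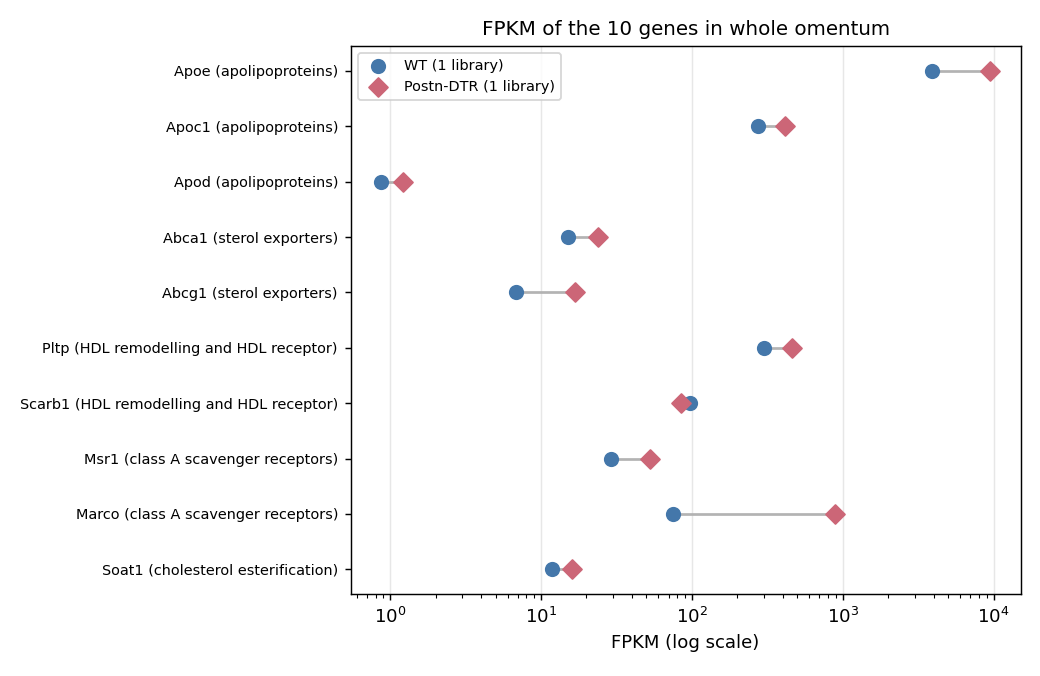
FPKM on a log axis of the 10 genes in the WT library (circles) and the Postn-DTR library (diamonds), ordered by role, with 1 library per genotype and therefore no error bars. The widest gap is that of Marco, from 75.1 to 882, and Scarb1 is the only gene whose Postn-DTR value lies to the left.

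Among the scavenger receptors, Marco rose and Msr1 did not reach the threshold. Marco encodes a collagenous receptor of macrophages that binds bacteria, particles and modified lipoproteins. Marco (ENSMUSG00000026390, chromosome 1, 120474538 to 120505024 on the minus strand, GRCm38) was at 75.1 FPKM in WT against 882 in Postn-DTR. It was 11.7-fold higher, with a change of 3.54. Only 0.175% of the genes compared had a larger change, and Marco ranked 24 among them. By level it moved from rank 1110 of all listed genes in WT to rank 124 in Postn-DTR. Msr1, which encodes scavenger receptor A, takes up acetylated and oxidized low-density lipoprotein. It was at 29.0 FPKM in WT against 52.8 in Postn-DTR, a ratio of 1.82 and a change of 0.85. The order of the pair by level was the same in both libraries, but Marco stood 2.59-fold above Msr1 in WT and 16.7-fold above it in Postn-DTR. The 3 genes closest to Marco in log2(FPKM + 1) over both libraries were Slpi (64.9 and 627), Serpina3n (116 and 1248) and Wdr92 (81.2 and 450.2). This likeness rests on 2 libraries.

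Among the apolipoproteins, Apoe rose from an already high level. Apolipoprotein E accepts cellular cholesterol and is the ligand through which remnant lipoproteins are cleared. Apoe (ENSMUSG00000002985, chromosome 7, 19696109 to 19699188 on the minus strand) was at 3922 FPKM in WT against 9479 in Postn-DTR. It was 2.42-fold higher, with a change of 1.27, and 2.37% of the genes compared had a larger change. It was the transcript with rank 4 in WT and rank 2 in Postn-DTR. Apoe alone made up 0.723% of the summed FPKM in WT and 1.41% in Postn-DTR. Apoc1 encodes a small apolipoprotein that inhibits lipoprotein lipase and the uptake of remnants. It was at 273 FPKM in WT against 412 in Postn-DTR, a ratio of 1.51 and a change of 0.59. Apod encodes a lipocalin that carries small lipophilic ligands and is unrelated in sequence to the products of Apoe and Apoc1. It was close to the expression minimum, at 0.870 FPKM in WT against 1.22 in Postn-DTR. This corresponded to about 20 and 29 estimated reads per kilobase of transcript. For reads of that number in a 1 kb transcript, an exact binomial 95% interval of the ratio reached from 0.766 to 2.62, for counting error only. A difference of Apod was therefore not detectable at this depth.

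Apoe and Apoc1 lie in a cluster with Apoc4 and Apoc2 on chromosome 7, so the flanking genes were examined. They were chosen after the values of the cluster had been seen, as all protein-coding genes whose start lay within 100 kb of the Apoe start. Apoc2 encodes the cofactor of lipoprotein lipase and was at 13.6 FPKM in WT against 127.9 in Postn-DTR, a 9.41-fold rise with a change of 3.14. Apoc4, a minor component of triglyceride-rich lipoproteins, had an FPKM of 9.64 and 52.6, a 5.46-fold rise with a change of 2.33. Of the 4 apolipoprotein genes of the cluster, 3 were thus called higher. With pancreatic acinar genes left out and the library totals set equal, Apoe had a change of 0.93 and was not called. A readthrough gene spans Apoc4 and Apoc2, listed at 0 in WT and at 0.681 in Postn-DTR, so the division of reads between these neighbours is uncertain. Of the 6 flanking genes compared outside the cluster, 0 were called in either direction. Over all genes compared, 3.88% were called higher and 3.12% lower, so calls among so few genes would be rare. Their changes lay between -0.39 for Pvrl2 (34.5 and 26.04) and 0.21 for Tomm40 (27.3 and 31.7), with a median of -0.054. Of 11 further apolipoprotein genes listed, 4 passed the expression minimum, and 3 of these rose, which were Apoc2, Apoc4 and Apoc3, an inhibitor of triglyceride clearance (5.28 and 24.4). The other was Clu, which encodes apolipoprotein J, at 285 and 365.

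**Figure D2:**
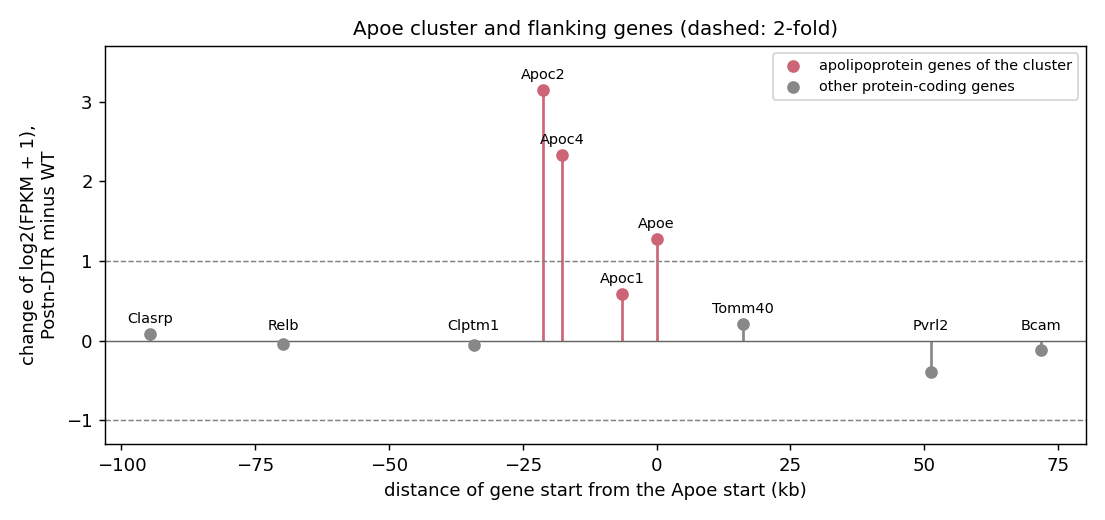
Difference of log2(FPKM + 1) between Postn-DTR and WT (positive: higher in Postn-DTR) for the 10 protein-coding genes compared within 100 kb of the Apoe start, plotted by the distance of each gene's start in kb. Apoc2 (3.14), Apoc4 (2.33) and Apoe (1.27) stand above the dashed 2-fold line, Apoc1 (0.59) lies below it, and the 6 flanking genes lie between -0.39 and 0.21.

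Of the sterol exporters, Abcg1 rose and Abca1 did not reach the threshold. Abcg1 (ENSMUSG00000024030, chromosome 17, 31057675 to 31117988 on the plus strand) was at 6.85 FPKM in WT against 16.8 in Postn-DTR. It was 2.45-fold higher, with a change of 1.18, and 2.74% of the genes compared had a larger change. Abca1 (ENSMUSG00000015243, chromosome 4, 53030787 to 53159895 on the minus strand) was at 15.0 FPKM in WT against 23.8 in Postn-DTR, a ratio of 1.58 and a change of 0.63. Abca1 was the more abundant exporter in both libraries, by 2.198-fold in WT and 1.41-fold in Postn-DTR. Their summed FPKM was 21.9 in WT and 40.6 in Postn-DTR, small beside that of Apoe.

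The HDL proteins did not share a direction. Pltp encodes phospholipid transfer protein, which moves phospholipid between lipoproteins and enlarges HDL. It was at 298 FPKM in WT against 460 in Postn-DTR, a ratio of 1.54 and a change of 0.62. The gene overlaps Ctsa on the opposite strand, and whether reads were counted by strand was not given in the sources used here. Scarb1 encodes SR-BI, the HDL receptor that takes up cholesteryl ester. It had the lowest change of the 10 genes, -0.20, at 97.3 FPKM in WT against 84.9 in Postn-DTR. Of the genes compared, 71.5% had a higher change. The 3 genes closest to it in level over both libraries were Htra3 (95.3 and 85.2), Uba1 (100.3 and 84.5) and Acadm. Soat1 was at 11.7 FPKM in WT against 16.1 in Postn-DTR, a ratio of 1.37 and a change of 0.42. Soat2, which encodes the esterifying enzyme known from intestine and liver, rose from 1.18 to 5.11 but stayed below Soat1 in both libraries.

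Related genes were counted from lists. Over all genes compared, 3.88% were called higher and 3.12% lower, and each list count stands beside these shares. With pancreatic acinar genes left out and the library totals set equal, 2.32% of all genes were higher and 789 of 13130 lower. LXRs, their partner RXRs and further LXR targets had 2 of 11 genes compared higher and 0 lower, with a median change of 0.15 that became -0.18, with 0 higher and 1 (Srebf1) lower, after pancreatic acinar genes had been left out and the library totals set equal. The rises were those of Smpdl3a, a sphingomyelinase-like phosphodiesterase (90.6 and 225), and Mylip, which encodes a ubiquitin ligase (17.2 and 35.6). The change of Mylip was 1.01, and 0.99 after scaling by the median ratio between the libraries. The receptors themselves were within 2-fold, with a change of -0.28 for Nr1h3 and of 0.30 for Nr1h2 (52.6 and 64.8), which became -0.043 at equal totals. Srebf1, an LXR target that drives fatty acid synthesis, was at 72.3 and 45.0, a change of -0.67. Intracellular cholesterol storage, hydrolysis and transport had 3 of 12 higher and 0 lower, with a median of 0.28 that became -0.054 at equal totals, where Soat2 alone stayed above the threshold. Beside Soat2 these were Plin2, which coats lipid droplets (167 and 390.1), and Ch25h, which makes 25-hydroxycholesterol (6.90 and 16.2). Nceh1, a hydrolase of cholesteryl ester, was at 5.37 and 9.33, a change of 0.70, and Npc1, which exports cholesterol from lysosomes, was at 11.7 and 20.9, a change of 0.79. Cholesterol synthesis genes, listed together with the regulators Srebf2 and Insig1, stood on the other side. Of 21 compared, 10 fell and 0 rose, and their median change was -0.88, or -1.17 with 12 lower at equal totals. The lowest change in this list was that of Nsdhl, from 32.9 to 8.05, and Hmgcs1 fell from 51.9 to 17.1.

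Other scavenger receptors gave 3 of 14 compared higher, against 3.88% of all genes, and 0 lower, against 3.12%. Their median change was 0.39. At equal totals the median was 0.053, and 2 of the 14 were higher. Cd68, a lysosomal sialoprotein of macrophages, rose from 114 to 369. Cd163, the haptoglobin-hemoglobin receptor, rose from 29.2 to 69.5. Its change of 1.22 was 0.88 at equal totals, where it was no longer called. Olr1, the lectin-like receptor for oxidized lipoprotein, rose from 0.329 to 2.99. The WT value of Olr1 was below that of Apod and rests on few reads. Cd36, a fatty acid and oxidized lipoprotein receptor that adipocytes also carry, was at 309 and 244, a change of -0.34. None of these 14 genes had a change as large as that of Marco, and the largest was 1.69, that of Cd68. Plasma lipoprotein enzymes and receptors had 1 of 8 higher and 1 lower, with a median of -0.19, against 0 higher and 2 lower with a median of -0.49 at equal totals. Lrp1, a receptor for apolipoprotein E, rose from 87.9 to 187, a change of 1.08 that was below the threshold at equal totals (0.74) and with the 75th percentiles matched (0.98). Lipg, an endothelial lipase, fell from 2.01 to 0.451, and its Postn-DTR value was likewise below that of Apod. Of 10 lipid-associated macrophage genes 5 rose and 1 fell, with a median of 0.93. At equal totals the median was 0.58, and Ctsl, a lysosomal protease, was no longer called (1.10 and then 0.76). Trem2, a lipid-sensing receptor, rose from 40.5 to 146, Gpnmb from 5.60 to 44.2 and Spp1 from 1.02 to 78.3. Fabp5, a fatty acid binding protein, fell from 200 to 86.3. Expression of these genes outside macrophages was not examined.

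**Figure D3:**
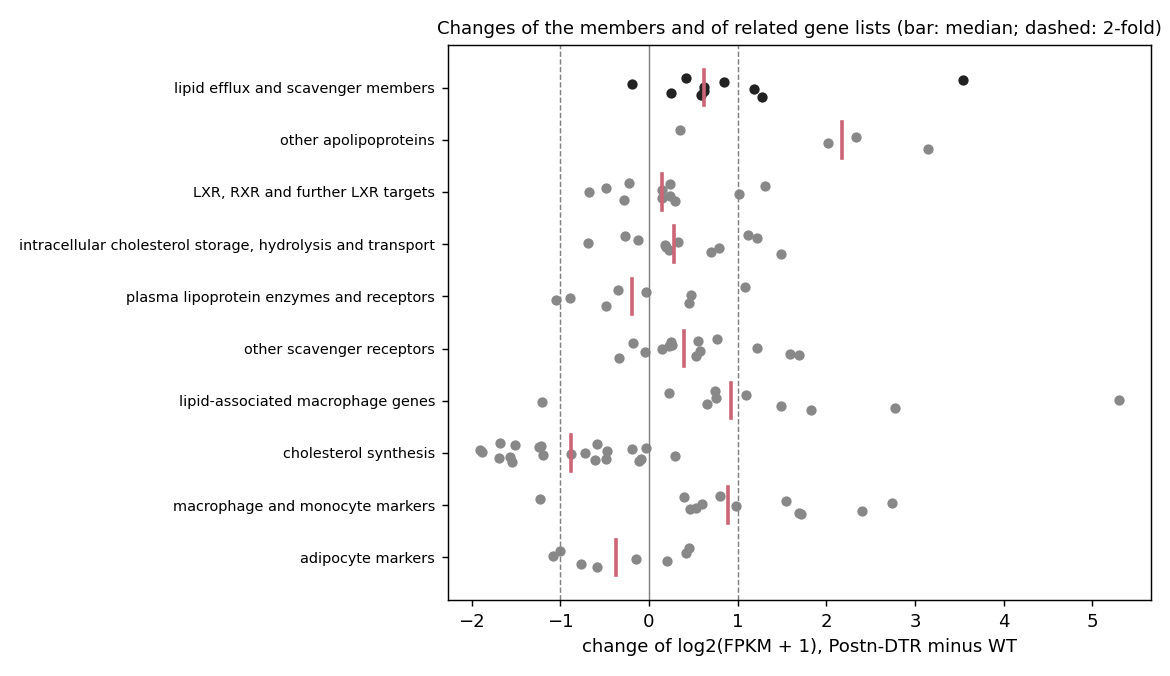
Difference of log2(FPKM + 1) between Postn-DTR and WT (positive: higher in Postn-DTR) of each gene compared (points) in the 10 genes described here and in 9 related or marker lists, with the median of each list as a bar and 2-fold as dashed lines. The 10 genes have a median of 0.62 with Marco at 3.54, and the cholesterol synthesis genes have a median of -0.88.

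Most of these genes are used by macrophages, and 11 of 12 macrophage and monocyte markers also had a higher FPKM in Postn-DTR, most of them without being called. Of these 12, 5 were called higher, against 3.88% of all genes, and 1, Ccr2, lower (39.6 and 16.4), against 3.12%. Their changes ranged from -1.23 to 2.74 with a median of 0.89, or of 0.56 with the same counts at equal totals. The 5 that rose were Adgre1, Cd68, Itgam, Cd14 and Ly6c2, where Cd68 is also counted among the other scavenger receptors above. Csf1r, Lyz2, Mertk, Fcgr1, Timd4 and Gata6 were not called. Of these, Mertk was 2.03-fold higher on FPKM with no pseudocount, with a change of 0.98. Marco changed more than all 12 markers, Apoe and Abcg1 each more than 7, Msr1 more than 6, and Scarb1 more than 1. The summed FPKM of the markers was 3016 in WT and 5058 in Postn-DTR, 1.68 times as much. By this measure, 4 of the 10 genes (Apoe, Abcg1, Msr1 and Marco) had a larger ratio than the marker sum and 6 a smaller one. Most of the sum came from Lyz2 (2459 and 3563), and without it the marker sum was 2.68 times as high in Postn-DTR, which Marco alone exceeded. Timd4 (29.6 and 39.2) and Gata6 (18.6 and 33.1), markers of resident peritoneal macrophages, had changes of 0.39 and 0.80. Neutrophil markers had 3 of 7 higher and 2 lower, with summed FPKM of 356 and 683, and 2 of the 7 were higher at equal totals. The part of cell numbers in the changes of the 10 genes was not tested here. In whole tissue, more cells of a type and more RNA per cell cannot be told apart. The paper's own cell counts 5 days after DT found omental macrophage numbers unaltered in Postn-DTR mice, with fewer total leukocytes. Whether those mice were the ones sequenced was not given in the sources used here.

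The sizes of these changes depended on how the libraries were scaled. The FPKM total was 542190 for WT against 671882 for Postn-DTR, and genes of the pancreas, which adjoins the omentum, were higher in the WT library. Of 30 pancreatic acinar genes compared, 30 were lower in Postn-DTR, and their summed FPKM was 13080 against 20.7. The acinar sum was 2.41% of the WT total, and leaving it out was not run apart from setting totals equal. With the acinar genes left out and the library totals set equal, the median change of all genes moved by -0.30. Called genes split into 27.9% higher where the deposited values gave 55.4%, and 789 of 13130 genes compared were lower. Under that setting Marco kept a change of 3.19 and stayed above 2-fold, while Apoe went to 0.93 and Abcg1 to 0.87, so that 1 of the 10 genes was called higher, against 2.32% of all genes. Relative to the median of all genes under that setting, the change was 1.21 for Apoe, 1.15 for Abcg1 and 3.48 for Marco. The 9 positive changes and the negative change of Scarb1 (-0.54) kept their sign. Adipocyte markers of the labelled tissue were present in both libraries, the lowest being Lep at 22.7 and 20.3, with 0 of 8 higher and 1, Pparg, lower. At equal totals Plin1 and Lipe were lower too, and the median change of these markers went from -0.37 to -0.71. After scaling by the median ratio between the libraries, or with the 75th percentiles matched, Lipe was the one that joined Pparg.

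**Figure D4:**
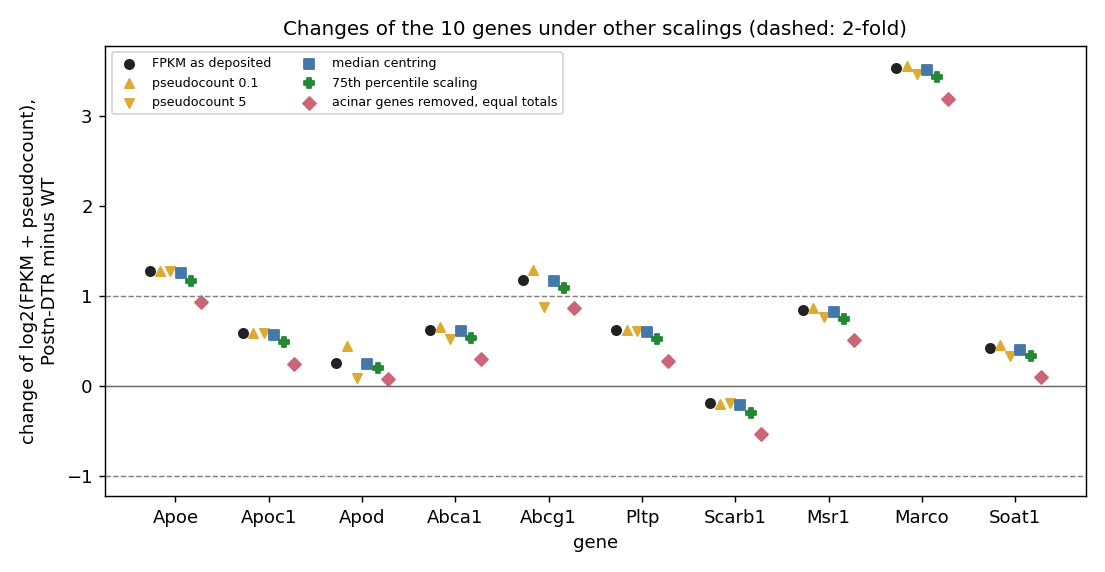
Change of the 10 genes, Postn-DTR minus WT on a log2 scale, with the FPKM as deposited, with pseudocounts of 0.1 and 5, and with 3 other scalings, with 2-fold as dashed lines. Marco stays between 3.19 and 3.55, Apoe and Abcg1 drop to 0.93 and 0.87 at equal totals without acinar genes, and no gene changes sign.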

How the data were processed

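Per the labels, whole-omentum RNA was purified with a miRNeasy kit and sequenced from TruSeq stranded mRNA libraries. The authors deposited FPKM per gene symbol, 1 value per library. The submitters' processing notes name TopHat2 2.1.1, Bowtie2 2.2.8, SAMtools 0.1.18, Cuffdiff 2.2.1 and the build mm10, which is GRCm38. The annotation, the strand setting and whether FPKM was scaled by library total or by a size factor were not given in the sources used here. Groups came from the genotype label.

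Changes, calls and alternatives were computed with Python 3.11.15, numpy 2.4.6 and pandas 2.3.3, with a pseudocount of 1, a mean FPKM of at least 1 and a 2-fold threshold. The code was tested on simulated data. Genes could be named in the text if they were among the 10, in 1 of 15 lists (7 of related pathways and 8 of cell type markers, counted whole but named only in part), or among the 3 nearest to the genes with the largest and the lowest change. The genes and lists were chosen with earlier results of these data known. Positions came from GENCODE M21 and promoters from RefSeq GRCm38.p6.

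The depth was read from the steps of low values. Of 723 genes at more than 0 but less than 0.1 FPKM in each library, 174 had a ratio of Postn-DTR over WT within 0.0005 of 0.967, so the denominator was 1.03 times as large in Postn-DTR. From genes with 1 annotated transcript longer than 1500 bp, an FPKM of 1 corresponded to about 23.1 reads per kilobase in WT and 23.9 in Postn-DTR. These are approximate, and intervals made from them cover counting error only. The lists of mesothelial (1 of 5 lower), endothelial (0 of 5 called), fibroblast (2 of 8 lower) and lymphocyte markers (4 of 7 lower) had median changes of 0.27, -0.13, -0.44 and -1.00. With acinar genes left out and totals set equal, these were -0.064 (1 lower), -0.47 (1 lower), -0.78 (3 lower) and -1.25 (6 lower). Over all genes compared, 3.12% were lower with the deposited values, and 789 of 13130 were lower under that setting.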

Additional observations from a re-analysis of the deposited data

How the results depend on the processing

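The 3 genes called higher became 7 at a 1.5-fold threshold, 1 at a 3-fold threshold and 1 with the acinar genes removed and equal totals. The share of all genes called higher was 3.88%, and became 9.86%, 1.52% and 2.32% under these settings. The count of 0 lower genes held under all 9 alternatives. Fewer or more calls follow from a moved threshold by construction. The median change of 0.62 became 0.52 when the 75th percentiles were matched and 0.29 when the totals were, which moved all genes downward. With a pseudocount of 5, Abcg1 had a change of 0.88 and was no longer called. Apod was not compared at a mean FPKM of at least 10. No gene of the 10 changed sign under any alternative tried for it. No paired analysis was possible because each genotype had 1 library, and for the same reason no replicate could be left out. Among the 10 genes, depth limits only Apod, at about 20 and 29 reads per kilobase.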
